A study of Mus musculus with 5 samples.

Results

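The T-box, GATA, RUNX, MEF2, EBF and Ikaros genes encode families of DNA-binding transcription factors that direct mesoderm, endoderm, heart, muscle, limb and blood development. They were followed here in a pooled CRISPR screen of mouse embryonic stem (ES) cells, where Cas9 cuts the gene named by the guide RNA of each cell and sequencing counts the guides in the population. The members were the genes of the library named Gata1 to Gata6, Tbx followed by a number (without Tbx3), T, Eomes, Tbr1, Runx1 to Runx3, Mef2a to Mef2d, Ebf1 to Ebf4, or Ikzf followed by a number. This rule found 34 of 1682 genes and 340 of 16820 guides to genes, at 10 guides per gene. They were 15 T-box, 6 GATA, 2 RUNX (Runx2 and Runx3), 4 MEF2, 4 EBF and 3 Ikaros genes (Ikzf1 to Ikzf3). Runx1 was not analysed here.

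The genotype is given as Ainv15(iNgn2 Tubb3::GFP). The cells received the guides by lentivirus and were kept in ES cell medium under Zeocin. All libraries from cells share this genotype, treatment and medium, and the cells are labelled as untreated otherwise. There were 2 libraries of the plasmid pool and 1 library of cells at each of days 5, 8 and 12. No RNA was measured, so the label of ES cells could not be checked against marker genes. Days are numbered from transduction in the sample titles but from selection, for day 5, in the protocol. They serve as names here, except in the trend over days.

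Transcription factors of these families act mostly when pluripotent cells leave the ES cell state. T and Eomes mark the first mesoderm and endoderm of the gastrulating embryo, Gata4 and Gata6 drive primitive endoderm, and GATA, T-box and MEF2 factors share control of heart genes. RUNX, EBF and Ikaros factors are best known from blood cells, where Runx3 and Ikzf1 act in T cells and Ebf1 sets the B cell fate. A guide whose cells grow like the rest keeps its share of reads in such a screen, and a guide that slows growth loses reads.

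Of the 340 guides, 293 had at least 30 reads in each plasmid library and were used, 7 to 10 per gene. The other 47 were left out, and 6 of those had no read in any library. Per kept member guide the median read number was 188 and 72 in the plasmid libraries, then 59, 64 and 60 at days 5, 8 and 12. None of the 293 was at 0 reads at any day. Over all genes, 93 of the 14443 kept guides were at 0 at day 12, so a 0 was rare there too. Members held 2.02% and 2.01% of all reads in the plasmid libraries, and 2.18%, 2.23% and 2.24% at days 5, 8 and 12. The share of the non-targeting control guides rose more, from 5.38% and 5.59% to 7.36%, 8.00% and 8.05%. The plasmid libraries held 3541896 and 1350234 reads in total and those of cells 1008492 to 1082489. The 2 plasmid libraries were counted separately, since their difference exceeded sampling noise (chi-square 2.21 times its degrees of freedom). Over the kept member guides the log2 ratio between them had an SD of 0.277.

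The members' largest changes belonged to single guides. The sequences below are the lowest and highest of the 293 at day 12, as the deposited count tables list them, 5′ to 3′, with the 12 bases at the 3′ end, the seed next to the PAM, in capitals. The PAM itself is not part of the listed guide. The 5 lowest are shown first and 4 of the 5 highest after them. The other of the highest, Gata6 guide 6, is given by its values only.
Gata1 guide 6: aaacgaccACTACAACACTC
Gata3 guide 2: agtggctgAAGGGAGAGATG
Ebf1 guide 10: aacagcgaAAAGACCAATAA
Tbx6 guide 3: taagctcaCCAACAGCACAC
Ikzf3 guide 2: tcatattaAACTGCACACGG
Tbr1 guide 2: atgggttcCTTGTGGCAAAG
Gata1 guide 10: ctccactgTGGCGGAGGGAC
Ebf2 guide 10: gattgagcGCACAGCCTTCG
Ebf3 guide 6: ctgctgggGACGTAGCCTCG

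The comparison of day 12 with the plasmid pool asks for which of these genes guides were lost or gained in ES cells. A gene's value is the median over its kept guides of the log2 change in scaled CPM (read counts scaled to library size), given with the SD over guides. No member had a median past 2-fold in either direction. Over all 1682 genes, 15.8% were lower and 1.19% were higher past 2-fold at day 12. The 34 medians ran from -0.49 for Ikzf3 to 0.85 for Ikzf1, with a median of 0.18 and an SD of 0.30, against a median of 0.0090 over all genes. Of the members, 26 lay above 0, and 50.8% of all genes did. Outside the scaling on non-targeting reads, the sign of 15 members turned under at least 1 of 9 other settings, and that of the other 19 did not. In the order of all genes, 1 member lay in the lowest 25%, 20 in the middle and 13 in the highest 25%. When libraries were scaled instead on the reads of the non-targeting guides, the median of all genes shifted by -0.65 log2 units, 33 of 34 members lay below 0, and the family medians ran from -0.60 (MEF2) to -0.17 (GATA). A sign given below is thus a position against the middle of all kept guides. Each time point has 1 library, so these are descriptions of the libraries, with no test.

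The GATA genes had the highest medians as a family, with 6 of 6 above 0 and a family median of 0.48, or -0.17 when libraries were scaled on the non-targeting reads. Gata4, a regulator of heart and endoderm (chromosome 14, 63198914 to 63271712, mm10), had a median of 0.64 (SD 0.43), and 8 of its 8 kept guides lay above 0. The summed scaled CPM of its guides was 561 and 631 in the plasmid libraries and 818, 848 and 823 at days 5, 8 and 12. Every library of cells was thus above both plasmid libraries for Gata4. At day 12, 2.5% of all genes had every kept guide above 0 and 11.2% had every guide below 0. Gata4 was the only member with all guides on one side at day 12, and its lowest guide was at 0.0035. The Gata4 median was 0.23 over guides with at least 100 plasmid reads and -0.011 when scaled on the non-targeting reads.

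Gata5, which acts in endocardium and gut (median 0.51, SD 0.49), and Gata6, a driver of primitive endoderm (0.49, SD 0.55), each had 7 guides above 0. Gata2, needed by blood stem cells, had a median of 0.39 (SD 0.50) with 6 of 9 guides above 0. The spread over guides exceeded the median of Gata2 and of Gata6. Gata3, a T cell and trophoblast factor (chromosome 2, 9857078 to 9887953), had a median of 0.47 (SD 1.31) with 3 of 7 guides below 0. It was at -0.03 as a mean over guides, at 0.15 without the read filter and at -1.49 over the 2 guides with at least 100 plasmid reads. Gata1, the red cell factor on the X chromosome (7959260 to 7976663), had the widest spread of all members (median 0.15, SD 1.52). It was at -0.25 as a mean over guides, at -0.13 after the GC correction and at -0.0033 against plasmid library 1 alone. Its guides ran from -3.82 to 1.71, from the deepest loss to nearly the highest gain among all member guides.

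Guides with more G and C bases had higher changes, among members as among controls. The 51 GATA guides averaged 61.4% GC, against 56.0% over all member guides and 55.6% over the non-targeting guides. Member guides of 45% GC or less had a median change of 0.018 at day 12, those of 50 to 65% had 0.17, and those of 70% or more had 0.49. Across the 293 guides, which share the same libraries, Pearson's r with GC was 0.34 and Spearman's rho was 0.32. The slope was 0.125 log2 units per G or C base over the non-targeting guides and 0.135 over the member guides. With that control slope subtracted the GATA family median was 0.29, and those of the T-box and Ikaros genes were 0.21 and 0.22. Single genes moved more, in both directions. Tbx21 went down from 0.46 to -0.06, Tbx5 from 0.63 to 0.23 and Ebf2 from 0.54 to 0.15. Gata6 went down from 0.49 to 0.24 and Gata4 from 0.64 to 0.37. Tbx4 went up from 0.13 to 0.48, Tbx15 from 0.16 to 0.36 and Tbx22 from -0.08 to 0.15.

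The 15 T-box genes ran from -0.35 to 0.63, with 11 above 0 and a family median of 0.16. Tbx5, a factor of heart and forelimb (chromosome 5, 119796514 to 119885220), was the highest at 0.63 (SD 0.71, 5 of 7 guides above 0). Its summed scaled CPM was 418 and 371 in the plasmid libraries and 503, 564 and 586 at days 5, 8 and 12. Tbx5 was the only member above the median of the non-targeting guides at all 3 days. Tbx21, the T-bet factor of T helper cells, had a median of 0.46 (SD 0.91; 0.06 as a mean over guides), and Tbr1, a factor of cortical neurons, had 0.38 (SD 0.81). Tbx19, which drives the pituitary corticotroph fate (0.34), Tbx18, a factor of somites and the heart's pacemaker (0.32), and the heart factor Tbx20 (0.23) had 8, 7 and 5 guides above 0. Tbx1, which acts in the pharyngeal arches, was at 0.23, and the skeletal factor Tbx15 was at 0.16. The hindlimb factor Tbx4 was at 0.13, the repressor Tbx2 at 0.06 and the paraxial mesoderm factor Tbx6 at 0.04. The SD over guides was 0.64 for Tbx19, 0.87 for Tbx18 and 0.39 for Tbx20. For Tbx1, Tbx15, Tbx4, Tbx2 and Tbx6 it was 0.57 to 0.95. In every T-box gene named so far in this paragraph, from Tbx5 to Tbx6, the SD over guides was larger than the median.

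The lowest T-box genes were Tbx10 (-0.35, SD 0.57), Eomes (-0.18, SD 0.66), the palate gene Tbx22 (-0.08, SD 0.48) and T (-0.02, SD 0.91). Against plasmid library 2 alone, these 4 values were -0.07, -0.04, 0.33 and 0.04, so that Tbx22 and T lay above 0. Against plasmid library 1 alone, Tbx22 was at -0.30 and Eomes at -0.31. T, also known as Brachyury (chromosome 17, 8434423 to 8442496), had 6 of 10 guides below 0 and a summed scaled CPM of 653, 679, 678, 703 and 643 in the order plasmid 1, plasmid 2, day 5, day 8 and day 12. Its libraries of cells lay close to those of the plasmid pool. Eomes (chromosome 9, 118478186 to 118486132), a T-box factor of definitive endoderm and trophoblast, had 4 of 7 guides below 0, from -0.88 to 0.87. Its summed scaled CPM was 489, 444, 547, 475 and 501 in the same order. The spread over guides was larger than the median in each of these 4 genes.

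The Ikaros family held both ends of the members. Ikzf1, the founding Ikaros gene of lymphocyte development (chromosome 11, 11684962 to 11772930), had a median of 0.85 (SD 0.45) and ranked 1650 of 1682 from the lowest. Its summed scaled CPM was 483 and 388.5 in the plasmid libraries and 520, 635 and 706 at days 5, 8 and 12. Its 7 kept guides 1, 2, 4, 6, 8, 9 and 10 were at -0.16, 1.01, 0.85, 0.48, 0.68, 1.03 and 1.17. Thus 6 of 7 guides were above 0, and guide 6 was at -1.09 at day 5. The 7 guides averaged 60.7% GC, and the GC-corrected median was 0.58. Only 2 Ikzf1 guides had at least 100 reads in each plasmid library, and their median was 0.30.

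Ikzf3, the Aiolos gene of B cells (chromosome 11, 98464610 to 98546031), had the lowest median of the members, -0.49 (SD 0.99), at rank 413. Its summed scaled CPM was 515 and 542 in the plasmid libraries and 428, 389.5 and 427 at days 5, 8 and 12. Its kept guides 1 to 8 and 10 were at -0.61, -2.09, -0.46, -0.51, 0.81, -0.49, 0.24, 0.51 and -1.92. Guides 2 and 10 were thus well below the others, and 3 of 9 guides were above 0. Ikzf2, the Helios gene of regulatory T cells, had a median of 0.11 (SD 0.93). It was at -0.82 over its guides with at least 100 plasmid reads.

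The EBF genes ran from -0.32 to 0.54. Ebf2, a factor of brown fat cells, had a median of 0.54 (SD 0.71), Ebf1 of the B lineage had 0.38 (SD 1.10; 0.06 as a mean over guides) and Ebf3, a factor of neurons, had 0.10 (SD 0.80). Ebf4 (chromosome 2, 130295126 to 130370482) was at -0.32 with the smallest spread of all members (SD 0.31), and 6 of its 7 guides were below 0. Its summed scaled CPM was 599.5 and 540 in the plasmid libraries and 506, 489 and 449 at days 5, 8 and 12. In these sums the libraries of cells were all below both plasmid libraries for Ebf4. Its median over guides was not below 0 throughout. It was 0.05 at day 8, with 4 of 7 guides above 0. For day 12 against day 5 it was 0.08, with 5 of 7 guides above 0.

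The MEF2 genes, which act in muscle, heart and neurons, lay near 0 at day 12, and so did the RUNX genes. Mef2d had a median of -0.19 (SD 0.47), Mef2a of -0.08 (SD 0.72), Mef2b of 0.19 (SD 0.89) and Mef2c of 0.22 (SD 0.45). Runx2, the bone-forming factor, was at 0.05 (SD 0.81), and Runx3, a factor of T cells and sensory neurons, was at 0.18 (SD 0.63). For all 6 genes the spread over guides was larger than the median.

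At day 5 and day 8 no member passed 2-fold either. At day 5, 6.3% of all genes were lower and 0.0595% were higher past 2-fold, and at day 8 these shares were 12.1% and 0.178%. The median of the members was 0.15 at day 5 and 0.13 at day 8, with 22 and 26 of 34 above 0. Of all genes, 50.6% and 51% lay above 0. When scaled on the non-targeting reads, 1 of 34 members lay above 0 at each of these days, against 3.75% and 3.33% of all genes. The lowest member was Gata1 at day 5 (-0.31) and Ikzf3 at day 8 (-0.40), and the highest was Tbx5 at both days (0.49 and 0.68). Both RUNX genes were below 0 at days 5 and 8 and above 0 at day 12. Without plasmid replicate 1, Runx3 turned sign at days 5 and 8 and Runx2 at day 8. As means over guides at day 12, Runx2 was at -0.01 and Runx3 at -0.02. The medians kept one sign at all 3 days in 17 genes above 0 and in 2 below 0, and changed sign in the other 15. Other settings turned some of these signs. At day 5 all kept guides of Gata6, and at day 8 all kept guides of Gata4, lay above 0, as in 1.72% and 2.62% of all genes. No member had all guides below 0 at either day, against 7.25% of all genes at day 5 and 11.1% at day 8. These comparisons share the plasmid libraries.

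The comparison of day 12 with day 5 describes the change within the cells after selection. No member passed 2-fold, while 7.02% of all genes were lower and 0.832% were higher. The member medians ran from -0.60 for Mef2d to 0.66 for Gata3, with a median of 0.08 and 24 of 34 above 0. Of all genes, 49.2% lay above 0. When scaled on the non-targeting reads, 8 of 34 members lay above 0, against 18.3% of all genes. Mef2d, the MEF2 gene on chromosome 3 (88141941 to 88172091), had 8 of 8 guides below 0 (SD 0.29). Its guides 1, 2, 3, 4, 7, 8, 9 and 10 were at -0.56, -0.70, -0.40, -0.71, -0.95, -0.65, -0.0097 and -0.29. Of all genes, 5.71% had every kept guide below 0 in this comparison. The summed scaled CPM of Mef2d was 541.5, 552, 621.5, 553 and 422 in the order plasmid 1, plasmid 2, day 5, day 8 and day 12. The day 12 library was the lowest of the 5 and the day 5 library the highest. Mef2a had a median of -0.33 (SD 0.38) and Mef2b of -0.29 (SD 0.43), whereas Mef2c was at 0.14 (SD 0.51). MEF2 had the lowest median of the 6 families here, -0.31 (-0.54 when scaled on the non-targeting reads), and the next lowest was that of the T-box genes, 0.018 (-0.21).

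On the other side, Gata3 had a median of 0.66 (SD 0.61) from day 5 to day 12. Its summed scaled CPM was 358.5 and 361 in the plasmid libraries and 267, 312 and 364 at days 5, 8 and 12, so it was lowest at day 5 and back at the plasmid level at day 12. The 2 Gata3 guides with at least 100 plasmid reads had a median of -0.37 from day 5 to day 12, and the 2 such guides of Ikzf1 had 0.07. Ikzf1 had 7 of 7 guides above 0 in this comparison (median 0.48, SD 0.53), and 1.9% of all genes had every kept guide above 0. Tbx1 was at 0.49 (SD 0.49), Tbx21 at 0.44 (SD 0.32) and Runx2 at 0.40 (SD 0.51). The non-targeting guides had a median of 0.17, and 11 members (32.4%) lay above it, against 25.4% of all genes.

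The trend of each guide over days was tested with edgeR's quasi-likelihood test on all 5 libraries, with the plasmid pool at day 0 and Benjamini-Hochberg adjustment over all 15336 kept guides. "Fell" and "rose" are used for guides with an adjusted p under 0.05. Of the 293 member guides, 33 fell (11.3%) and 67 rose (22.9%). Among all guides to genes 24.0% fell and 16.1% rose. The same test called 43 of the 893 non-targeting guides (4.82%) lower and 406 (45.5%) higher. A rise in this test was thus more frequent among guides without a target than among members. Scaling on the non-targeting reads turned the split around, to 95 member guides lower and 7 higher. These are 32.4% and 2.39% of member guides, against 48.9% and 2.49% of all guides to genes, so the larger share of rising members was not present there. The share of rising members was also close to that of all guides to genes with at least 100 plasmid reads (20.4% against 20.0%) and over days 5, 8 and 12 alone (4.78% against 4.58%). The share of falling members was below that of all guides to genes in each of these 3 settings, at 32.4%, 15.1% and 0.341% against 48.9%, 26.7% and 3.82%. The p-values measure the spread between the plasmid libraries and around a straight course, and no replicate culture of the cells enters them.

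By family, 4 of 51 GATA guides fell (7.84%) and 19 rose (37.25%). Of 131 T-box guides 14 fell (10.69%) and 25 rose (19.08%), and of 34 EBF guides 3 fell (8.82%) and 10 rose (29.41%). Of 25 Ikaros guides 5 fell (20%) and 7 rose (28%). Of 36 MEF2 guides 4 fell and 4 rose (11.11% each), and of 16 RUNX guides 3 fell (18.75%) and 2 rose (12.5%). Among all guides to genes 24.0% fell and 16.1% rose. In each family the rising share was below the 45.5% of the non-targeting guides. Guides of 1 gene often disagreed. In 18 genes some guides fell and others rose, in 10 genes calls were only higher, in 5 only lower, and Eomes had none. Gata4, Ikzf1 and Gata6 had 4 rising guides each and no falling one. Tbx5 had 4 rising guides and 1 falling guide. Only lower calls were found in Ebf4, Mef2d, Runx3 and Tbx10, with 1 guide each, and in Tbx15, with 2.

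Single guides passed 2-fold more often than gene medians. At day 12, 23 member guides were lower past 2-fold, against 21.5% of all guides to genes, and 29 were higher, against 7.39%. At day 5 there were 20 lower (12.9%) and 2 higher (1.26%), and at day 8 19 lower (17.9%) and 6 higher (2.74%), with the shares of all guides to genes in parentheses. From day 5 to day 12, 5 were lower (12.0%) and 12 were higher (4.76%). The 23 lower guides lay in 17 genes, of which 12 had 1 such guide, 4 had 2 and Gata1 had 3. The 29 higher guides lay in 18 genes, and 8 genes held guides of both kinds.

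The non-targeting guides are the control measured in the same libraries. On the scale set by all guides, their median change was 0.41, 0.54 and 0.58 at days 5, 8 and 12. At day 12 the middle 95% of them lay between -1.10 and 1.74. Of the member guides, 272 lay inside this interval, 20 below it and 1, Tbr1 guide 2, above it. Below it lay 6.83% of member guides and 19.9% of all guides to genes. Only 3 members (8.82%), Ikzf1, Gata4 and Tbx5, had a day 12 median above that of the non-targeting guides, and 6.24% of all genes did. With the GC correction the control median was 0.50. Of these 3 members only Ikzf1 (0.58) then lay above it, with Gata4 at 0.37 and Tbx5 at 0.23. The median of the members was 0.40 below the control median at day 12 under either scaling, but a scaling shifts both nearly alike. The member median minus the control median was -0.29 with the GC correction and -0.47 with at least 100 plasmid reads.

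The deepest loss was in Gata1 guide 6, with 94 and 40 reads in the plasmid libraries and 18, 3 and 1 reads at days 5, 8 and 12. Its single read at day 12 was 3.82% of its plasmid level, with a 95% exact Poisson interval of 0.0967 to 21.3% that covers counting error only. The 3 reads at day 8 were 10.0% of that level, with an interval of 2.07 to 29.3%. The slope was -0.31 log2 units per day (SE 0.056, adjusted p = 0.00052). The other 9 kept Gata1 guides had a median of 0.21. Among them, guide 10 rose to 1.71 (129, 65, 86, 106 and 131 reads), and guides 2 and 8 fell to -1.18 and -1.02.

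Gata3 guide 2 had 325 and 139 reads in the plasmid libraries and 30, 16 and 14 reads at days 5, 8 and 12. Its change was -2.62 at day 12 (adjusted p = 1.6e-05), while the rest of the Gata3 guides had a median of 0.64. Ebf1 guide 10 went from 91 and 36 plasmid reads to 6, 9 and 4, a change of -2.37 against 0.51 for the other Ebf1 guides. Most of the loss of these Gata3 and Ebf1 guides was present at day 5, with changes of -1.74 and -2.02. Tbx6 guide 3 had 456, 237, 64, 53 and 27 reads and fell at each step, to -2.35, against 0.06 for the other Tbx6 guides. Ikzf3 guide 2 had 170, 55, 15, 7 and 9 reads and was at -2.09. Each of these 4 guides fell in the trend test, and each stood apart from a gene median near or above 0 except that of Ikzf3.

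Tbr1 guide 2 was the highest member guide, at 2.04. It had 121 and 47 reads in the plasmid libraries and 42, 67 and 135 reads at days 5, 8 and 12, and nearly all of its rise came after day 5 (0.20 at day 5, 0.85 at day 8). The other Tbr1 guides had a median of 0.37. Gata6 guide 6 reached 1.68 with 174 reads at day 12. Ebf2 guide 10 reached 1.53 (85, 35, 44, 63 and 69 reads). Ebf3 guide 6 reached 1.49 but was already at 1.36 at day 5.

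Guides of 1 gene often overlap in sequence, and their changes were then set side by side. Of 94 pairs sharing at least 10 bases end to end, 69 had both guides kept, 33 on the same strand and 36 on opposite strands. Their day 12 values differed by a median of 0.59 log2 units, from 0.0016 to 4.03, against 0.66 over all 1138 pairs of kept guides of 1 member gene. In 26 of the 69 pairs the guides lay on opposite sides of 0. Of the 23 guides lower past 2-fold, 10 had a kept overlapping partner, and in 2 pairs both guides were lower. Overlapping guides were thus nearly as far apart as all pairs of guides of a gene, which include them. The 5 sets below, chosen after their values were seen, show both cases, with the bases that all guides of a set share, on either strand, in capitals.
Gata1 guide 1: cgaCCACTACAACACTCtgg
Gata1 guide 6: aaacgaCCACTACAACACTC
Gata1 guide 7: CCACTACAACACTCtggcgg
Tbx6 guide 1: TGTTGGTGAGCTTAacacga
Tbx6 guide 3: TAAGCTCACCAACAgcacac
Tbx21 guide 1: AAAGCTCACCAACAACAagg
Tbx21 guide 6: gctAAAGCTCACCAACAACA
Mef2b guide 1: tctcacGAATTCTAGACCAA
Mef2b guide 8: GAATTCTAGACCAAaggaac
Tbr1 guide 2: ATGGGTTCCTTGtggcaaag
Tbr1 guide 3: ggaggcaaATGGGTTCCTTG

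The 3 Gata1 guides share 14 bases, and their day 12 values were -0.42, -3.82 and 0.21 for guides 1, 6 and 7. Guide 1 was low at day 5 (-1.36) and closer to 0 at each later day, whereas guide 6 went from -0.69 at day 5 to its lowest value at day 12. The 2 Tbx6 guides lie on opposite strands with 14 shared bases and were at 1.24 (guide 1) and -2.35 (guide 3). They were close at day 5 (-1.06 and -1.31) and apart at day 12. The Tbx21 guides share 17 bases and were both lower, -1.23 and -1.38, as were the Mef2b guides with 14 shared bases, -1.67 and -1.31. The Tbr1 pair shares 12 bases, and guide 3 was at 0.37 where guide 2 was at 2.04.

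Runs were also shared between genes of 1 family. Over all member guides, 8 pairs of guides to different genes shared a run of at least 12 bases on either strand, 7 of them within 1 family. The longest run, AAGCTCACCAACA of 13 bases, occurs in both Tbx21 guides and Tbx6 guide 3 shown above and, on the other strand, in Tbx6 guide 1. Of these 4 guides, 3 were lower past 2-fold at day 12 and Tbx6 guide 1 was higher. Gata1 guides 9 and 10 and Gata3 guide 8 share a run of 12 bases across strands and were at 0.08, 1.71 and 1.16. Over whole guides, 24 member guides came within 4 mismatches of a guide to another gene, and none came closer. Where the guides cut in the genome was not analysed here.

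Known partners of these families were read from the same libraries. Of 32 listed genes 29 were in the library, and none passed 2-fold at day 12, with a median of 0.11. Over all genes 15.8% were lower and 1.19% higher past 2-fold. The 8 cardiac and mesoderm partners had a median of 0.24, from 0.05 for Gsc to 0.51 for the primitive streak factor Mixl1. The 6 GATA partners had a median of 0.10, with the blood cofactor Lmo2 the highest at 0.42. The RUNX partner Cbfb was at 0.0070, and the median of its list of 3 was the same. The 4 histone deacetylases that repress MEF2 factors ran from -0.43 for Hdac4 (SD 1.21) to 0.38 for Hdac9 (SD 0.66). The 7 EBF and lymphoid partners ran from -0.46 for Tcf3 (SD 0.75) to 0.63 for Tcf12 (SD 0.85). In these 4 genes the SD over guides was larger than the size of the median. Tbx3, a T-box gene outside the member rule that acts in ES cell self-renewal, had a day 12 median of 0.77 (SD 0.54) with 0 of 8 guides below 0. Among the members only Ikzf1 was higher.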

How the data were processed

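Each library was deposited as a table of read counts for single guides, not normalized, per the file headers. The submitters' processing notes name cutadapt, Bowtie, featureCounts and the mm10 build, with no version. How guide reads were matched is not given in the sources used here. Symbols and gene positions came from a RefSeq table of the same build, and all 34 members matched by symbol. Counts were scaled with TMM factors (edgeR 4.0.16, R 4.3.3). Changes are log2 ratios of scaled CPM with a pseudocount of 1 against the mean of both plasmid libraries or against day 5. Past 2-fold means a log2 value of at least 1 in size. Guides needed at least 30 reads in each plasmid library. The trend was fitted to all kept guides, with DESeq2 1.42.0 as an alternative. The fit was also run on counts simulated from the plasmid levels and dispersion of these data, which is not an independent check. Depth limits single guides to a median of 60 reads at day 12, and reads are not separate cells. Every member gene was named, and guides were named as the 5 lowest, the 5 highest and those of the lowest and highest gene, with further guides of Gata1 and Mef2d and the overlapping sets added after their values were seen. Guides past the trend threshold are given as counts. Members and lists were chosen with earlier results of these data known. Whether the time points come from 1 culture is not stated in the labels.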

Additional observations from a re-analysis of the deposited data

How the results depend on the processing

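No paired analysis was possible because only the plasmid group has replicates and each time point has 1 library. Scaling on the non-targeting reads, in place of all guides, shifted the median of all genes by -0.65 log2 units at day 12. The member medians were then -0.27 at day 5, -0.42 at day 8, -0.47 at day 12 and -0.14 for day 12 against day 5. Under that scaling 33 of 34 members were below 0 at day 12 (Ikzf1 stayed above, at 0.19), and 2 were lower past 2-fold (Ikzf3 at -1.14 and Tbx10 at -1.004), as were 29.3% of all genes. With at least 100 plasmid reads, 93 guides of 33 members were left (Tbx4 had none), and 1, 1 and 2 members were lower past 2-fold at days 5, 8 and 12, against 9.29%, 14.7% and 18.4% of all genes. Those at day 12 were Gata3 (-1.49) and Ikzf3 (-1.26), on 2 guides each. In the trend that filter gave 14 guides lower (15.1%, all guides to genes 26.7%) and 19 higher (20.4%, all 20.0%), out of fewer guides tested. Days 5, 8 and 12 alone gave 1 lower (0.341%, all 3.82%) and 14 higher (4.78%, all 4.58%). Scaling on the non-targeting reads, chosen after seeing the data, gave 95 lower (32.4%, all 48.9%) and 7 higher (2.39%, all 2.49%). Leaving out a plasmid library gave 12 to 19 lower and 30 to 31 higher, with 12 lower without plasmid replicate 1 and 19 without plasmid replicate 2. All guides to genes then gave 15.1% and 16.8% lower and 8.29% and 8.99% higher, against 10.6% and 10.2% of members higher. The cause was not tested. DESeq2's Wald test gave 22 lower (7.51%, all 19.8%) and 49 higher (16.7%, all 12.6%), all among the guides called by edgeR. Of 339 day 12 medians of single genes under the alternatives, 320 moved by less than the SD over guides, 15 moved more with scaling on the non-targeting reads and 4 with at least 100 plasmid reads. The day 12 sign turned for 8 members as a mean over guides, 8 with the GC correction, 7 with at least 100 plasmid reads, 3 without the read filter, 3 without plasmid replicate 1 (T, Tbx2, Tbx22) and 2 without plasmid replicate 2 (Gata1, Tbx6). With the GC correction the MEF2 and RUNX family medians were -0.12 and -0.11.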
